A study of Homo sapiens with 9 samples.

Results

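The transcripts of the mitochondrial ribosomal proteins were followed in A375, an established line of human melanoma cells. They were taken as all gene symbols that begin with MRPL (large subunit) or MRPS (small subunit) followed by a number and at most 1 letter, with values above 0 in all 3 groups of libraries. This gave 73 genes, 46 of the large and 27 of the small subunit, of 13825 genes tested. In all, 76 gene IDs with 74 symbols matched. MRPS24 and a second ID each of MRPL30 and MRPS17 were not above 0 in all 3 groups and were not tested. The 9 libraries form 3 groups of 3: knockdown of SPANX with construct 86 (labelled SPANX KD 86), knockdown of SPANX with construct 87 (SPANX KD 87) and a control labelled EV. The SPANX genes encode a family of sperm proteins that some tumours make as well. RNA was taken 7 days after knockdown in cells of this single line, and QuantSeq libraries, which read transcripts near their 3′ end, were sequenced. What the numbers 86 and 87 stand for, and whether replicates came from separate cultures, is not given in the labels. If they did not, the p-values describe technical spread alone.

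The mitochondrial ribosome translates the few messenger RNAs encoded by mitochondrial DNA, all of which specify membrane subunits of the oxidative phosphorylation complexes. Its ribosomal RNAs come from mitochondrial DNA, while all its proteins are encoded in the nucleus, made in the cytosol and imported. Many of these proteins descend from bacterial ribosomal proteins, and the rest were added in the mitochondrial lineage. The small subunit reads the messenger RNA. The large subunit forms the peptide bond and is attached to the inner membrane, into which the product is inserted.

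Promoters are shown for 4 genes on which the results turn: MRPS18B, lower with construct 86 by the smallest adjusted p; MRPL3, lower with both constructs; MRPS33, the largest fall with construct 87; and MRPS6, the single rise with construct 86. Each runs from 250 bases before to 50 bases after the annotated start, 5′ to 3′ in the gene's direction, as given by RefSeq for GRCh38.p14. Capitals mark a match to the YY1 motif AAGATGGCG in MRPS18B and to the ETS motif CCGGAAGT in MRPL3.
MRPS18B (chr6:30617590-30617889, plus strand): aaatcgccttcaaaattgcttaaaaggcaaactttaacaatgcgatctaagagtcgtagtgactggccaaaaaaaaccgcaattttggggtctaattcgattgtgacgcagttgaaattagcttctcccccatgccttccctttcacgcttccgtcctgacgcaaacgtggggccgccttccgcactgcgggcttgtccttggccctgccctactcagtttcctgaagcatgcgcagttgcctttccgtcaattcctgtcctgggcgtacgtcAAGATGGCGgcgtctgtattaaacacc
MRPL3 (chr3:131502922-131503221, minus strand): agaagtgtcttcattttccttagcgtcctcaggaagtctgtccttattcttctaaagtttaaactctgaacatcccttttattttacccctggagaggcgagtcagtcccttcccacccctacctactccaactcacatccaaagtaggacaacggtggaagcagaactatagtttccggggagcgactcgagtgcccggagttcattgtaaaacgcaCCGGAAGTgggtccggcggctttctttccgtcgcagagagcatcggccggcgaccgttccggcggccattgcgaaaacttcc
MRPS33 (chr7:141014903-141015202, minus strand): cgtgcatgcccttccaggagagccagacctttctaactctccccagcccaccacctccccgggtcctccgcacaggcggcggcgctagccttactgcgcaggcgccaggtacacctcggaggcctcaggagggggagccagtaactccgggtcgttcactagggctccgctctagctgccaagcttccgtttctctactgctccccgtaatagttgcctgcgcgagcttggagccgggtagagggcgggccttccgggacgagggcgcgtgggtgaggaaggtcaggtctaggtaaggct
MRPS6 (chr21:34073328-34073627, plus strand): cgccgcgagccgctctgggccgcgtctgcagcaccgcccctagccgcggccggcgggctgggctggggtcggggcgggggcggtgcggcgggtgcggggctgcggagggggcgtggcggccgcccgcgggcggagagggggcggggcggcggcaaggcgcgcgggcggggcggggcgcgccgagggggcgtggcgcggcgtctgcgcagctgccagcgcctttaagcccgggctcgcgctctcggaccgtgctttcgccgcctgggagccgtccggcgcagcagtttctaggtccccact
The MRPS33 and MRPS6 windows held none of the 5 motifs searched on both strands, and the MRPS6 window was 82% G and C, against a median of 60.2% over 64 members with a promoter and 58.3% over all 27305 promoters. The YY1 motif was in 12 of the 64 members' promoters (18.8%), against 1.85% of all promoters. The ETS motif was in 11 (17.2%), against 4.44% of all promoters. CCAAT was in 19 (29.7%, against 35.7%), the NRF1 motif GCGCATGCG in 3 (4.69%, against 2.1%) and TATAAA in 2 (3.12%, against 12%). None of these motifs contains another. Of the 20 members with a promoter that fell with construct 86, 4 held the ETS motif and 2 the YY1 motif, against 7 and 10 of the other 44. These matches describe letters and are no test of binding.

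Between 11310656 and 15564093 reads were recovered per library. The summed SPANXC and SPANXD values were 102.7, 36.01 and 42.21 normalised reads with construct 86 and 30.48, 23.98 and 40.73 with construct 87, against 502.3, 177.2 and 607.9 in EV libraries. Both constructs were thus below every EV library, 7.03-fold and 12.2-fold lower by geometric mean, with an exact two-sided permutation p of 0.1 each, the smallest that 3 libraries against 3 allow. Only SPANX genes above 0 in all 3 groups entered the sum. By gene the constructs ranked oppositely. SPANXD was 42.7-fold lower than EV with construct 86 (2 recovered reads in that group) and 9.32-fold lower with construct 87. SPANXC was 5.78-fold and 12.2-fold lower. In limma SPANXD differed between constructs (adjusted p = 0.0172), and SPANXC did not pass (adjusted p = 0.149). Of the melanocytic marker list 5 of 9 genes were above 0, with MLANA, TYR, DCT and TYRP1, 4 genes of pigment cells, at 0. The sum of that list lay between 15540 and 21760 with construct 86, 8822 and 12960 with construct 87, and 3270 and 6715 in EV libraries. SOX10 made up most of it, with 12750, 19640 and 14770 with construct 86, 10560, 11350 and 7095 with construct 87, and 2266, 5890 and 2625 in EV libraries. MITF, PMEL and S100B overlapped between construct 86 and EV libraries. S100A1 was at 1587, 1450 and 1491 with construct 86 and 858.6, 578.9 and 662.8 with construct 87, against 184.5, 116.0 and 243.6 in EV libraries. Of the epithelial list 2 of 5 were above 0, the keratins KRT8 and KRT18, with EPCAM, CDH1 and KRT19 at 0. Their sum was 1851 to 2277 with construct 86, 6134 to 7134 with construct 87 and 7731 to 10790 in EV libraries, mostly from KRT18. KRT8 alone was at 227.6, 217.0 and 405.7 with construct 86 and 1343, 1094 and 1641 with construct 87, against 1387, 972.8 and 1126 in EV libraries. The fibroblast list had 4 of 5 above 0 (COL3A1 at 0), with sums of 701 to 832.5 with construct 86, 615.7 to 965.8 with construct 87 and 167.2 to 293.4 in EV libraries. The leukocyte list had only LYZ above 0 of 5, with 238 to 336.1 with construct 86, 365.7 to 818.6 with construct 87 and 145.2 to 261.9 in EV libraries, and all 4 endothelial markers stood at 0. The part of these marker changes in the results below was not tested.

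Levels are normalised reads, that is, reads recovered from the deposited values and put on a common scale across the 9 libraries. Changes are log2 fold changes of the level plus 1, knockdown minus EV, with a standard error (SE) from limma. A gene counts as changed where its two-sided p, adjusted by Benjamini-Hochberg over all 13825 genes, was under 0.05. In every library at least 12 reads lay behind each member, and 68 of the 73 had over 100 reads in every library. MRPL38, MRPL53 and MRPS28 had the fewest reads.

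With construct 86, 26 of the 73 transcripts of the mitochondrial ribosome fell against EV, 1 (MRPS6) rose and 46 did not pass the test. The falls made up 35.6% of the members, where 17.6% of all genes fell, and the rise 1.37%, where 18% of all genes rose. The members' median log2 change was -0.68, against -0.04 over all genes, and 68 of the 73 estimates were below 0. In 25 members every construct 86 library lay below every EV library and in 1 every one lay above, while 22.8% and 22.5% of all genes were so placed. A fall in these bulk measurements cannot tell less RNA per cell from fewer cells that make it.

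**Figure D1:**
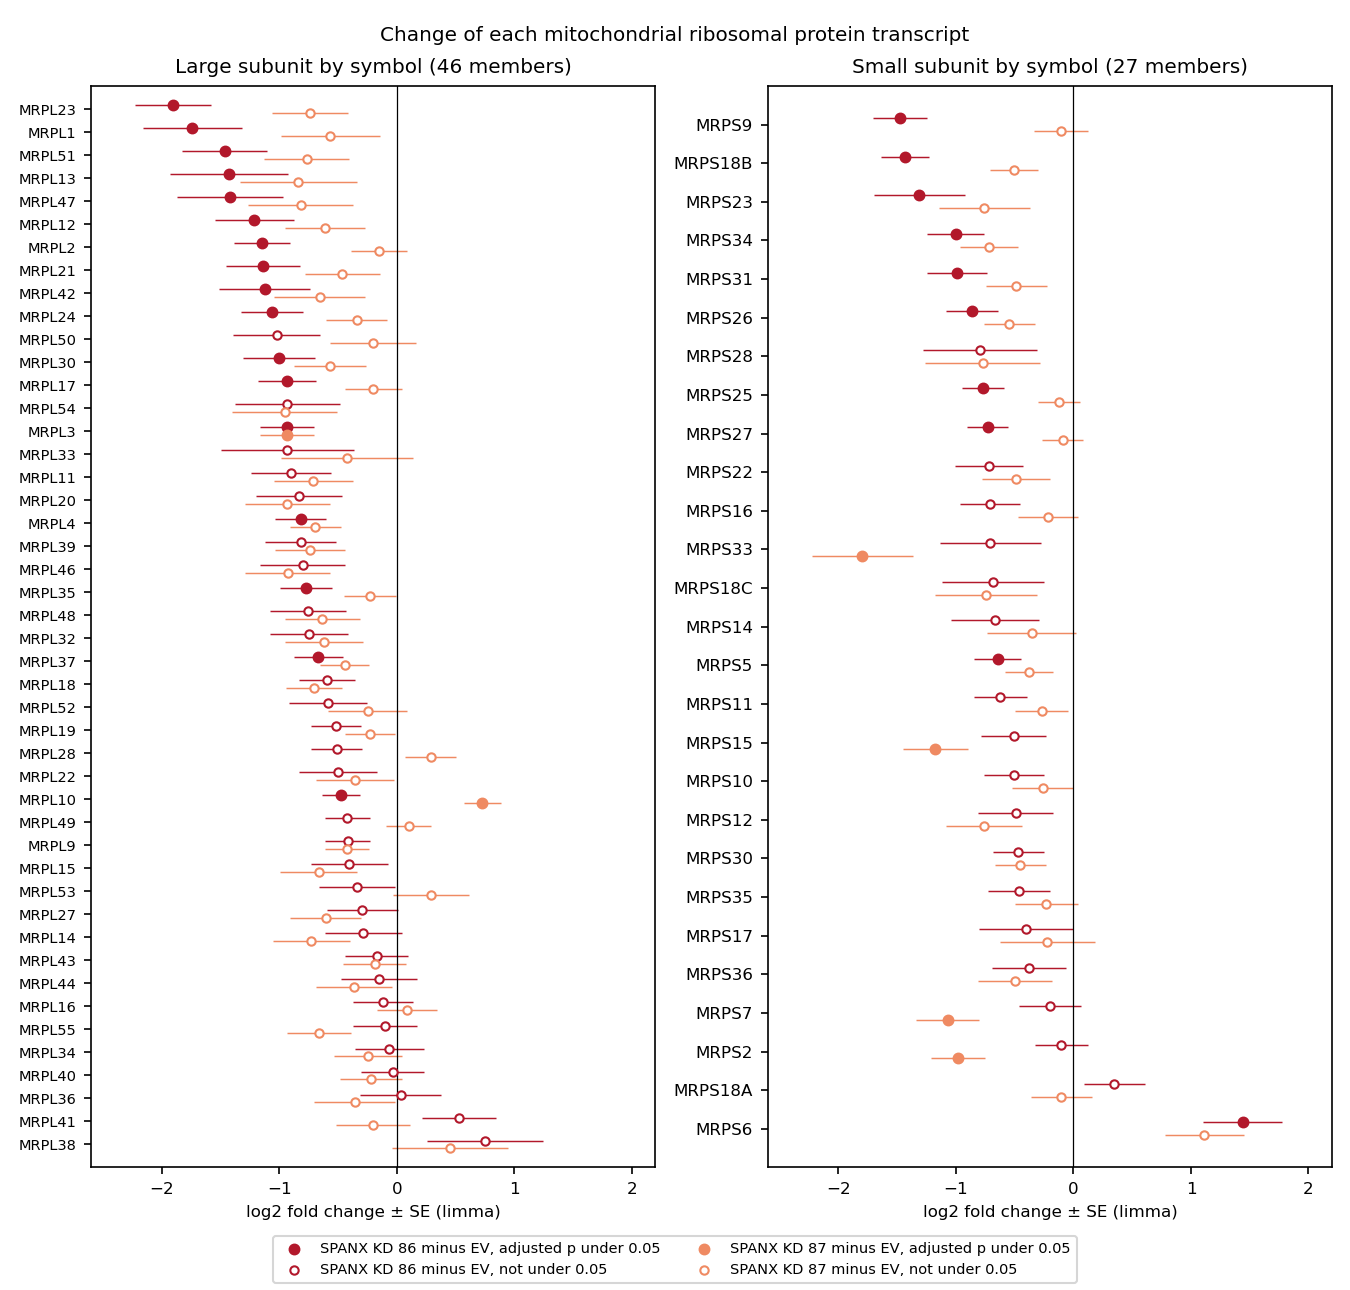
Log2 fold change of each of the 73 transcripts with construct 86 (dark) and construct 87 (light) against EV, with its SE from limma, for the large (left panel) and small subunit (right panel); filled points have an adjusted p under 0.05. Most points lie left of 0 with both constructs, and MRPS6 lies at 1.44 and 1.11.

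Among large-subunit proteins with a bacterial counterpart, MRPL23 had the largest fall of all members with construct 86. The gene, ENSG00000214026.10, lies on chromosome 11 (1947278 to 1984522, plus strand, GRCh38 in GENCODE v29). It had 322.5, 272.3 and 340.0 normalised reads with construct 86, against 1822, 679.6 and 1270 in EV libraries. All construct 86 libraries were below all EV libraries, although EV replicate 2 was far below the other EV libraries. The means were 311.6 ± 35.2 with construct 86 and 1257 ± 572 in EV libraries (SD, n = 3 each). The log2 change was -1.90 (SE 0.32, adjusted p = 0.00168 in limma), which is 3.74-fold lower on that scale. Its exons overlap those of MRPL23-AS1 on the other strand. MRPL1 stood at 252.8, 149.3 and 252.1 with construct 86, against 816.7, 366.3 and 1191 in EV libraries, a change of -1.74 (SE 0.42, adjusted p = 0.00977). MRPL2, which sits near the catalytic centre, had 261.5, 201.2 and 288.4, against 710.1, 457.6 and 506.6, a change of -1.14 (SE 0.24, adjusted p = 0.00465). The exons of MRPL2 overlap those of KLC4 on the other strand, and KLC4 fell as well, with 65.86, 100.1 and 117.2 with construct 86, against 151.1, 180.9 and 183.2 in EV libraries (-0.89, SE 0.26, adjusted p = 0.0209). MRPL3, another core protein of the large subunit, had 2357, 1398 and 1754 with construct 86, against 4140, 2823 and 3427 in EV libraries. Its change was -0.93 (SE 0.23, adjusted p = 0.0103), and without construct 86 replicate 2 its adjusted p was 0.0516. MRPL12, the stalk protein that contacts translation factors, was at 625.7, 400.6 and 479.6, against 1930, 685.1 and 1129, with a change of -1.21 (SE 0.34, adjusted p = 0.0189). Without EV replicate 1 or construct 86 replicate 2 MRPL12 no longer passed (adjusted p = 0.0662 and 0.0746). Altogether 14 of 30 large-subunit proteins with a bacterial counterpart (46.7%, where 17.6% of all genes fell) fell and 0 rose. At an unadjusted p under 0.05, 20 of the 30 were lower and 0 higher.

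Of the 16 large-subunit proteins specific to mitochondria, 3 fell and 0 rose (at an unadjusted p under 0.05, 6 and 0). The falls were 18.8% of this list, near the 17.6% of all genes. MRPL51 was at 1736, 1097 and 1448 with construct 86, against 5380, 2003 and 5376 in EV libraries. Its change was -1.46 (SE 0.36, adjusted p = 0.0104), and its exons overlap those of NCAPD2 on the other strand. NCAPD2 had an estimate of -0.76 with construct 86 (adjusted p = 0.073, and 0.00451 with the replicate number as a block). Whether the counting used strand is not given in the sources used here, so reads of such pairs cannot be told apart. MRPL38 and MRPL41 had positive estimates of 0.75 and 0.53 that did not pass (adjusted p = 0.258 and 0.209), and with the replicate number as a block MRPL41 rose (adjusted p = 0.0366).

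In the small subunit 9 of 27 members fell (33.3%, where 17.6% of all genes fell). MRPS18B, a mitochondrial variant of the bacterial S18 protein, was at 548.2, 417.2 and 510.0 with construct 86, against 1709, 1137 and 1179 in EV libraries. The groups did not overlap, with a change of -1.43 (SE 0.21, adjusted p = 0.000712). The gene lies on chromosome 6 (30617709 to 30626395, plus strand). MRPS9, which has a bacterial counterpart, was at 154.0, 152.8 and 144.2, against 531.2, 315.1 and 438.7, a change of -1.47 (SE 0.23, adjusted p = 0.00106). MRPS9 lies on chromosome 2 (105037983 to 105099960, plus strand), where its exons overlap those of UTAT33 on the other strand. Among members specific to mitochondria, MRPS25 was at 841.7, 952.2 and 954.4, against 1793, 1299 and 1636, with a change of -0.77 (SE 0.18, adjusted p = 0.00779). MRPS34 changed by -1.003 (SE 0.25, adjusted p = 0.0103) and MRPS27, a pentatricopeptide repeat protein, by -0.73 (SE 0.17, adjusted p = 0.00913), though not without construct 86 replicate 2 (adjusted p = 0.0511). The exons of MRPS25 overlap those of NR2C2 on the other strand, and NR2C2 moved the other way with construct 86 (0.88, SE 0.31, adjusted p = 0.0474). Of the 10 small-subunit proteins specific to mitochondria 6 fell (60%, where 17.6% of all genes fell) and 0 rose (at an unadjusted p under 0.05, 7 and 0). Of the 16 with a bacterial counterpart 3 fell (18.8%, near the 17.6% of all genes) and 1 rose (6.25%, where 18% of all genes rose). These counts take the subunit from the symbol. By structure MRPS30, among the 10, and MRPS18A, among the 16, belong to the large subunit.

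MRPS6, a small-subunit protein with a bacterial counterpart, was the member that rose. It had 1778, 1135 and 1698 normalised reads with construct 86, against 711.2, 337.1 and 712.5 in EV libraries, so that all construct 86 libraries lay above all EV libraries. The means were 1537 ± 351 with construct 86 and 586.9 ± 216 in EV libraries (SD, n = 3 each). The log2 change was 1.44 (SE 0.34, adjusted p = 0.00808), which is 2.71-fold higher on that scale, and it passed with any 1 of the 9 libraries left out. MRPS6 lies on chromosome 21 (34073224 to 34143034, plus strand, GRCh38 in GENCODE v29), and its exons overlap those of SLC5A3, a myo-inositol transporter gene, on the same strand. How reads in such overlaps were assigned is not given in the sources used here. With construct 86 SLC5A3 moved the other way, at 757.4, 1044 and 1196, against 1365, 2864 and 1711 in EV libraries, a change of -0.94 (SE 0.32, adjusted p = 0.0407). With construct 87 SLC5A3 was at 4297, 3390 and 2258, an estimate of 0.77 that did not pass (adjusted p = 0.149, and 0.0514 with the block). Of the 40 members whose exons overlap no other gene's, 15 fell with construct 86 (37.5%, where 17.6% of all genes fell). In this list 0 rose, where 18% of all genes rose (at an unadjusted p under 0.05, 20 lower and 0 higher).

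**Figure D2:**
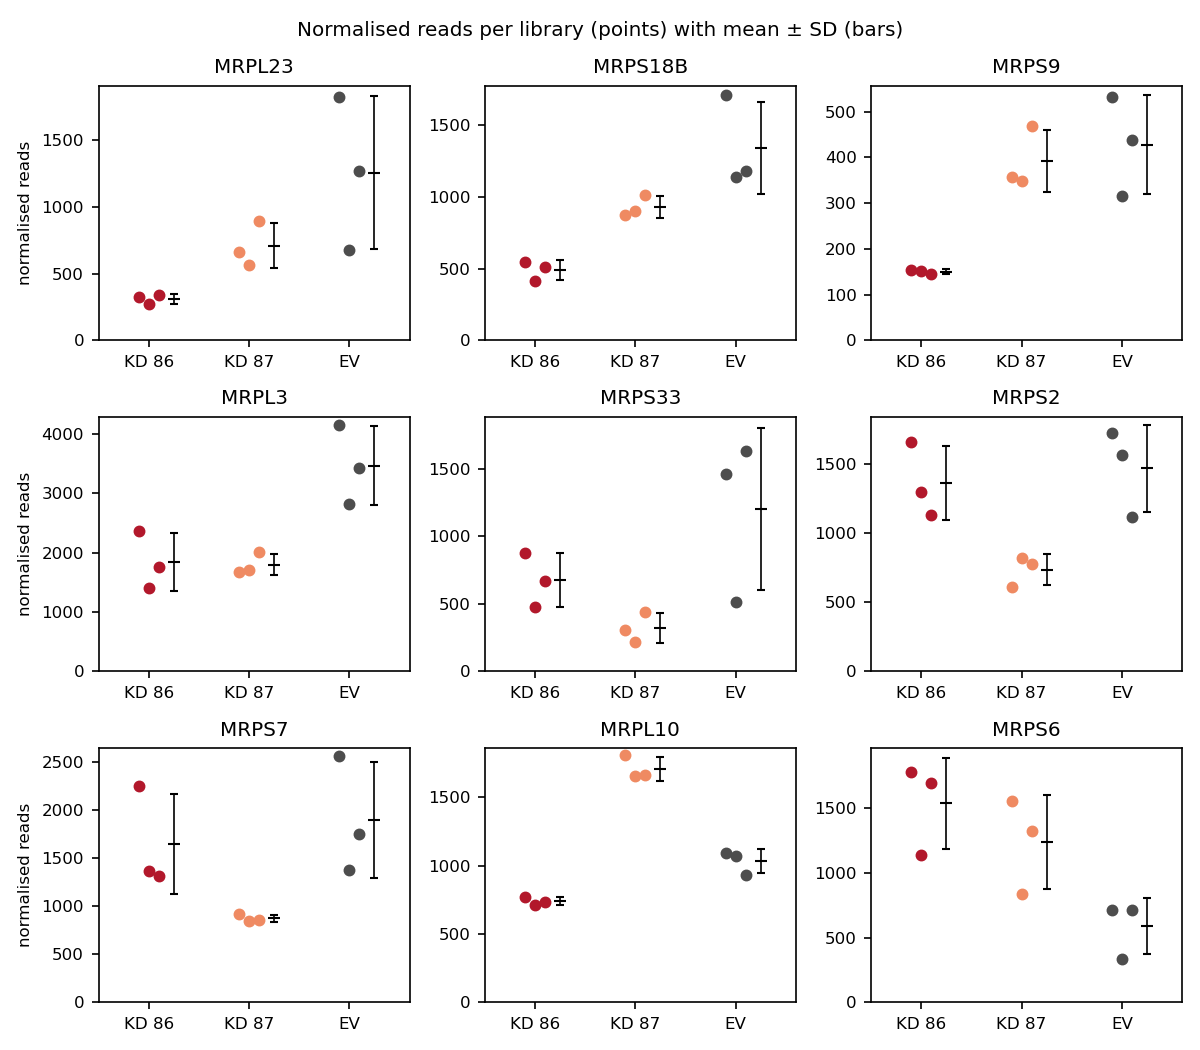
Normalised reads of 9 leading members in each library (points, replicates 1 to 3 from left to right in a group; linear axis from 0), with the mean and SD of each group of 3 as a bar, for construct 86, construct 87 and EV. MRPS6 is above EV in all 6 knockdown libraries, MRPL3 and MRPS18B below EV in all 6, and MRPL10 lies below EV with construct 86 and above it with construct 87.

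With construct 87 the estimates pointed mostly the same way but few passed the test. Of the 73 members 5 fell (MRPS33, MRPS2, MRPS15, MRPL3 and MRPS7), 1 rose (MRPL10) and 67 did not pass. The falls are 6.85% of the members, where 4.43% of all genes fell, and the rise is 1.37%, where 5.92% of all genes rose. The median log2 change was -0.46, against -0.0002 over all genes, and 66 of 73 estimates were below 0. In 14 members all construct 87 libraries lay below all EV libraries and in 2 above, while 14% and 15.2% of all genes were so placed. The EV libraries are the same 3 as in the comparison with construct 86.

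MRPS33, specific to mitochondria, had the largest fall with construct 87. It was at 303.7, 218.4 and 437.8 normalised reads with construct 87, against 1459, 513.4 and 1633 in EV libraries. The groups did not overlap, the change was -1.80 (SE 0.43, adjusted p = 0.0255), and construct 86 gave -0.71 (adjusted p = 0.221, and 0.0203 with the block described below). With only construct 87 and EV libraries in the fit, MRPS33 did not pass (adjusted p = 0.0509). MRPS33 lies on chromosome 7 (141002610 to 141015228, minus strand). MRPS2, with a bacterial counterpart, had 609.5, 823.8 and 781.9 with construct 87, against 1728, 1565 and 1121 in EV libraries, a change of -0.98 (SE 0.23, adjusted p = 0.0229). MRPS7, which binds the small ribosomal RNA in the head, had 918.5, 843.5 and 862.4, against 2562, 1382 and 1748, a change of -1.07 (SE 0.27, adjusted p = 0.0295). MRPS15 had 539.1, 557.5 and 648.6, against 1603, 856.8 and 1638, a change of -1.18 (SE 0.28, adjusted p = 0.0249). These exons overlap other genes on the other strand in MRPS2 (C9orf116) and MRPS7 (GGA3 and MIF4GD). MRPL3 had 1676, 1707 and 2003, against 4140, 2823 and 3427, a change of -0.93 (SE 0.23, adjusted p = 0.0276). MRPL4 and MRPL18, both with bacterial counterparts, had estimates of -0.69 and -0.70 that passed with the block (adjusted p = 0.0167 and 0.01) and not without it (0.0693 and 0.0853).

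MRPL10, the protein at the base of the large-subunit stalk, changed in opposite directions. It had 1806, 1654 and 1662 normalised reads with construct 87, against 1093, 1069 and 932.4 in EV libraries, a change of 0.73 (SE 0.16, adjusted p = 0.0178). With construct 86 it had 773.9, 715.0 and 735.2, a change of -0.47 (SE 0.16, adjusted p = 0.0385). The means were 1707 ± 86.0 with construct 87, 741.4 ± 29.9 with construct 86 and 1032 ± 86.8 in EV libraries (SD, n = 3 each), with no overlap between any of the groups. MRPL10 lies on chromosome 17 (47823272 to 47831534, minus strand). The fall with construct 86 did not pass after removal of the length trend (-0.32, adjusted p = 0.154), nor without any 1 of the 9 libraries other than EV replicate 3. The rise with construct 87 no longer passed without construct 87 replicate 1 or replicate 2, nor with only construct 87 and EV libraries in the fit (adjusted p = 0.0551).

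In the fit without the block, all 6 calls with construct 87 were lost when certain single libraries were left out. All 6 passed with the block and all libraries, and the blocked fit was not repeated with a library left out. Without construct 87 replicate 1 or replicate 2, 0 members passed in limma, where 9 and 11 had an unadjusted p under 0.05. Of all genes 1.63% then rose and 1.03% fell in the absence of replicate 1, and 2.53% and 1.87% in the absence of replicate 2. Without EV replicate 1 only MRPL10 passed (2.41% of all genes rose and 1.36% fell). Without EV replicate 3 there were 1 rise and 1 fall (4.07% and 3.59% of all genes), and without EV replicate 2 there were 1 rise and 31 falls (9.92% and 8.56%). With construct 86 there were 2 rises and 13 falls without EV replicate 1 (13.5% and 11.5% of all genes), 1 and 50 without EV replicate 2 (21.8% and 21.7%), and 1 and 9 without construct 86 replicate 2 (11.8% and 10.3%). Among the 17 falls lost without that last library are those of MRPL3, MRPL4, MRPL10, MRPL12, MRPS26 and MRPS27.

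The replicate numbers paired the libraries, and a fit with the replicate number as a block called more members in every comparison. It gave 53 falls and 2 rises with construct 86, where 28.3% of all genes fell and 27% rose. With construct 87 it gave 32 falls and 2 rises, where 14.8% fell and 16.1% rose. MRPS6 rose with construct 87 too (1.11, adjusted p = 0.000521 with the block and 0.0609 without it), with 1556, 840.1 and 1323 normalised reads. MRPL23 (-0.74, adjusted p = 0.0267 with the block and 0.169 without it) and MRPS18B (-0.51, 0.038 and 0.141) fell with construct 87 in the blocked fit.

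In 7 members all 6 knockdown libraries lay on the same side of all 3 EV libraries. MRPL3, MRPS18B, MRPL4, MRPS34, MRPS26 and MRPL37 were below (6 of 73, where 6.97% of all genes were so placed) and MRPS6 was above (8.64% of all genes). MRPL4, with a bacterial counterpart, had 1311, 1008 and 1079 with construct 86 and 1073, 1283 and 1348 with construct 87, against 2668, 1676 and 1750 in EV libraries. MRPS26, specific to mitochondria, had 1124, 837.1 and 824.3 with construct 86 and 1070, 1215 and 1155 with construct 87, against 2176, 1632 and 1313 in EV libraries. With construct 87, MRPS26 and MRPS34 passed with the block (adjusted p = 0.0326 and 0.0216) and not without it (0.136 and 0.0879).

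The EV libraries differed among themselves in these genes. The 73 members together took 0.514, 0.349 and 0.433% of all normalised reads in the construct 86 libraries and 0.499, 0.445 and 0.588% in the construct 87 libraries, against 0.836, 0.474 and 0.790% in the EV libraries. EV replicate 2 was the lowest EV library for 67 of 73 members, and its total share lay below those of construct 86 replicate 1 and construct 87 replicates 1 and 3. In 64 of 73 members the highest of all 9 libraries was EV replicate 1 or EV replicate 3. Replicate 2 was also the lowest construct 86 library for 64 members and the lowest construct 87 library for 54.

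**Figure D3:**
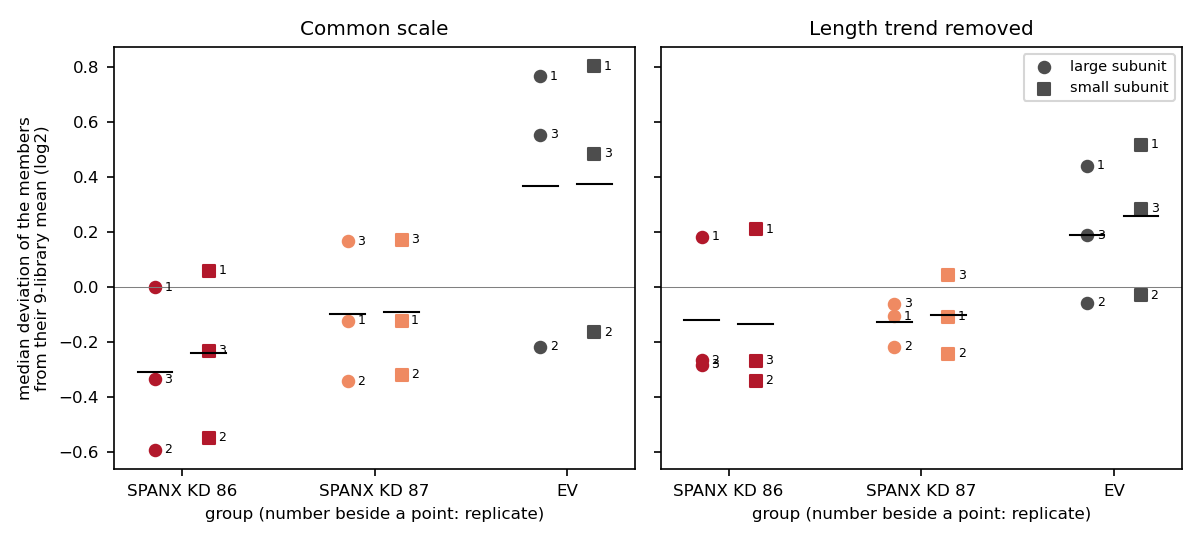
Median deviation of the large-subunit (46) and small-subunit members (27) from their mean over the 9 libraries, on the log2 scale, for each library (number: replicate; line: group mean), for construct 86, construct 87 and EV, on the common scale (left panel) and with the length trend removed (right panel). In the left panel EV replicates 1 and 3 lie highest, EV replicate 2 lies among the knockdown libraries, and the subunits move together within each library.

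Transcript length moved with these changes, and its part in them was tested only by the correction given here. The members are short, with a median length of 1127 bases against 2465 for all genes tested, and 70 of 73 are shorter than that median. Over all 1586 genes under 1000 bases the median log2 change was -0.53 with construct 86 and -0.27 with construct 87, while genes over 4000 bases had 0.34 and 0.17. In EV replicate 2 genes under 1000 bases lay at a median deviation of -0.29, against 0.53 in EV replicate 1 and 0.56 in EV replicate 3. After a smooth trend with length was removed from each library, 23 members fell and 4 rose with construct 86, where 19.7% of all genes fell and 18.8% rose. The members' median then was -0.40, against -0.04 over all genes. With construct 87, 5 fell and 2 rose (7.52% and 7.6% of all genes), with a median of -0.39 against -0.02. MRPL23 then changed by -1.38 with construct 86 (adjusted p = 0.000357) and MRPS6 by 1.802 (adjusted p = 0.00018), while MRPL10, MRPL35, MRPL37 and MRPS26 no longer passed. With both the block and the length correction there were 36 falls and 5 rises with construct 86 (28.8% and 26.4% of all genes) and 30 falls and 3 rises with construct 87 (17.9% and 16.9%).

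**Figure D4:**
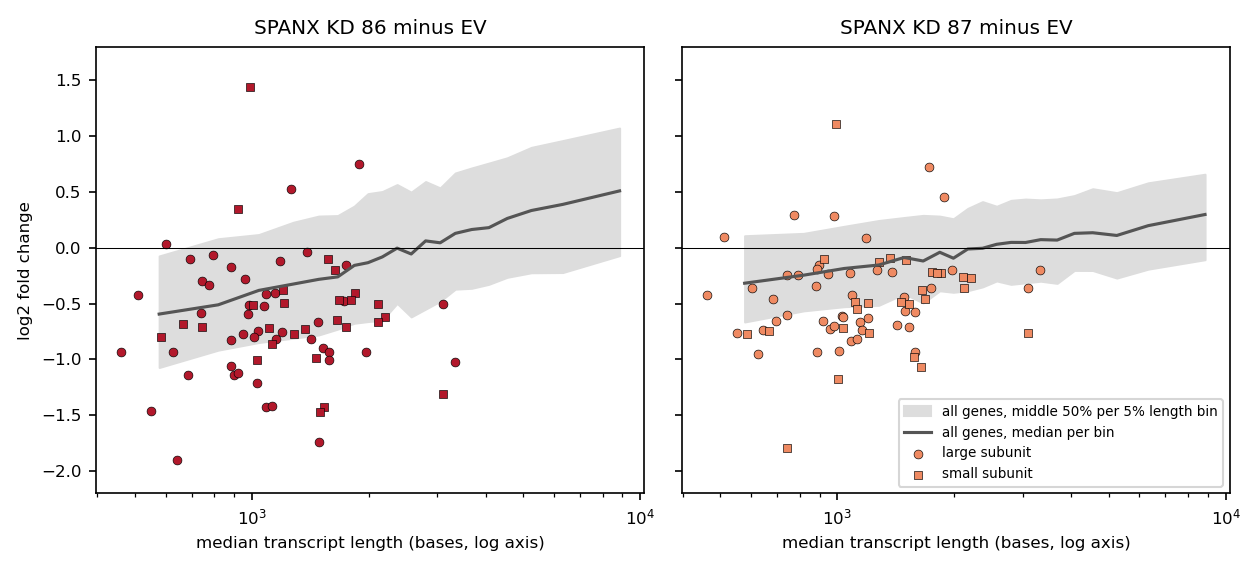
Log2 change of each member (points, large and small subunit) against median transcript length (log axis), with the median (line) and middle 50% (band) of all genes tested in 20 bins of 5% each, for construct 86 (left) and construct 87 (right). The members cluster at short lengths, where the line over all genes is itself below 0, and most members lie below the line. After the length trend was removed, 58 of 73 estimates with construct 86 and 64 with construct 87 were below 0.

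Between the constructs, 9 members were higher with construct 87 than with construct 86 and 2 were lower, while 12.7% of all genes were higher and 12.9% lower. In 17 members all construct 87 libraries lay above all construct 86 libraries and in 7 below, where 22.9% and 22.4% of all genes were so placed. The largest difference was in MRPS9, with 358.4, 348.5 and 469.4 normalised reads with construct 87, against 154.0, 152.8 and 144.2 with construct 86. It differed by 1.36 (SE 0.23, adjusted p = 0.002), and EV libraries were at 531.2, 315.1 and 438.7. MRPL10 differed by 1.20 (SE 0.16, adjusted p = 0.000607). MRPL23 had 665.2, 566.9 and 893.9 with construct 87, against 322.5, 272.3 and 340.0 with construct 86, a difference of 1.16 (SE 0.32, adjusted p = 0.0238). MRPL2 differed by 0.99 and MRPS18B by 0.92, both without overlap of the groups. KLC4, whose exons overlap those of MRPL2, differed by 0.94 (SE 0.26, adjusted p = 0.0213). MRPS2 ran the other way, with 609.5, 823.8 and 781.9 with construct 87, against 1660, 1298 and 1137 with construct 86, a difference of -0.88 (SE 0.23, adjusted p = 0.0169). MRPS7 differed by -0.87 (SE 0.27, adjusted p = 0.035). For 62 members no difference passed. MRPL3 had a difference of -0.004 with an SE of 0.23. With the block, 21 members were higher and 5 lower with construct 87 (22.2% and 21.9% of all genes). After removal of the length trend 8 were higher and 8 lower (15% and 15.3%), and with the block as well 14 and 13 (23.8% and 24%), so higher values no longer outnumbered lower ones by much.

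**Figure D5:**
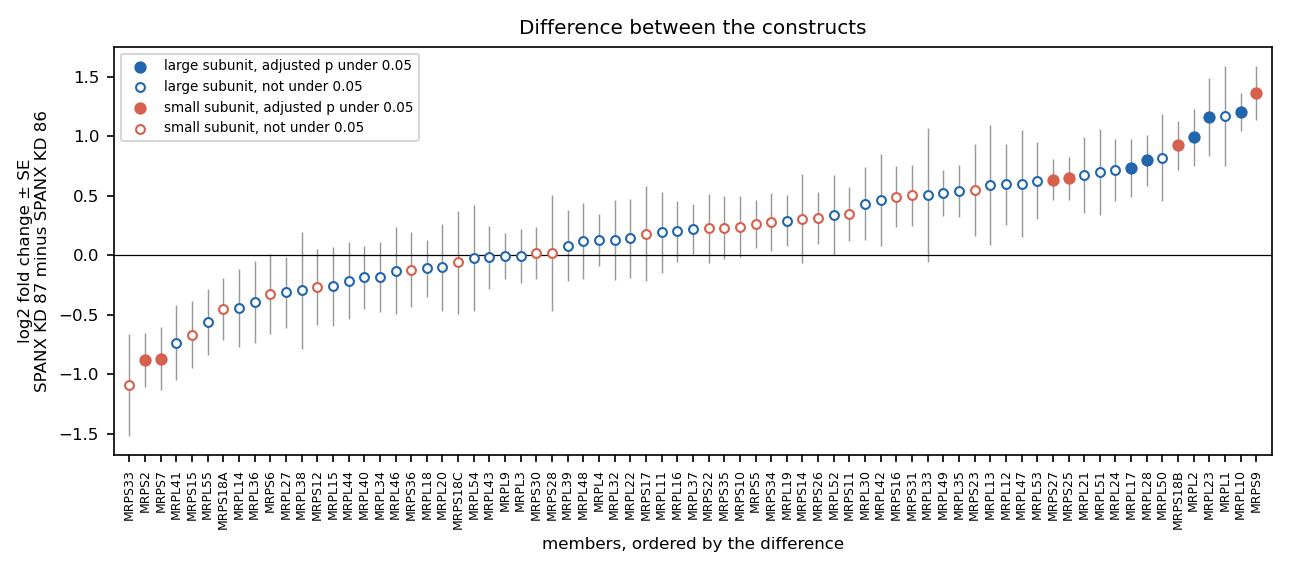
Log2 difference, construct 87 minus construct 86, with its SE from limma for each of the 73 members in ascending order; blue marks the large and red the small subunit, and filled points have an adjusted p under 0.05. MRPS2 and MRPS7 are the filled points below 0, and the 9 filled points above 0 run up to MRPS9 at 1.36.

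Between the large and the small subunit the median changes differed little. With construct 86 the median change was -0.75 in the large and -0.67 in the small subunit. Their difference of -0.08 was above 1 SD of the spread between libraries given below, with no test. In the large subunit 17 of 46 fell (37%) and 0 rose, and in the small subunit 9 of 27 fell (33.3%) and 1 rose (3.7%). Over all genes 17.6% fell and 18% rose. Beside the 0 rises of the large subunit, 0 members were higher at an unadjusted p under 0.05. With construct 87 the medians were -0.45 and -0.48, a difference of 0.03. In the large subunit 1 fell and 1 rose (2.17% each), and in the small subunit 4 fell (14.8%) and 0 rose. Over all genes 4.43% fell and 5.92% rose. At an unadjusted p under 0.05 1 small-subunit member was higher with construct 87. Within groups, the large minus small median deviation per library varied with an SD of 0.0513 (construct 86 and EV) and 0.0474 (construct 87 and EV). The ratio of summed large-subunit to summed small-subunit reads was 1.62, 1.57 and 1.62 with construct 86, 1.81, 1.73 and 1.79 with construct 87, and 1.8, 1.55 and 1.85 in EV libraries. The construct 86 ratios lie between those of EV replicate 2 and the other EV libraries. Counting the subunits by structure, with MRPS30 and MRPS18A in the large subunit and MRPS36 left out, gave a difference of -0.01 with construct 86 and 0.04 with construct 87. MRPS30 had estimates of -0.47 and -0.45 and MRPS18A of 0.35 and -0.10 with constructs 86 and 87, none past the test. With the block MRPS30 fell with construct 86 (adjusted p = 0.0291), and with the length trend removed MRPS18A rose with it (0.74, adjusted p = 0.0349). MRPS36, now known as a subunit of the oxoglutarate dehydrogenase complex, had estimates of -0.38 (adjusted p = 0.365) and -0.50 (adjusted p = 0.333).

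The other variants of the bacterial S18 protein did not follow MRPS18B past the test. MRPS18C was at 793.3, 344.3 and 527.6 with construct 86 and 555.9, 373.4 and 612.9 with construct 87, against 1172, 406.5 and 1254 in EV libraries, with overlapping groups and adjusted p of 0.243 and 0.3 (0.0186 and 0.0233 with the block). MRPS18A was at 1033, 621.0 and 530.0 with construct 86 and 524.4, 465.0 and 544.7 with construct 87, against 681.2, 444.9 and 543.2. MRPS12, near the decoding centre, had estimates of -0.49 (adjusted p = 0.255) and -0.76 (adjusted p = 0.157, and 0.0227 with the block). Whether MRPS18B differed from the other variants was not tested.

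Mitoribosomal proteins that carry other symbols were counted apart. Of 9 such genes 2 fell with construct 86 (22.2%, near the 17.6% of all genes): PTCD3, a pentatricopeptide repeat protein of the small subunit, by -0.88 (SE 0.19, adjusted p = 0.00486), and MRPL58, a peptidyl-tRNA hydrolase built into the large subunit, by -1.05 (SE 0.32, adjusted p = 0.0278). None rose with construct 86 (0 at an unadjusted p under 0.05), and with construct 87 0 of 9 passed (2 lower at an unadjusted p under 0.05). DAP3, a GTP-binding protein of the small subunit, had estimates of -0.49 (adjusted p = 0.0782, and 0.0161 with the block) and -0.18 (adjusted p = 0.583). MRPL45 of the large subunit, named for its role in membrane attachment, had -0.38 (adjusted p = 0.328) and -0.16 (adjusted p = 0.752). With the block 5 of the 9 fell with construct 86 (55.6%, where 28.3% of all genes fell) and 3 with construct 87 (33.3%, where 14.8% fell).

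Other genes that serve the same ribosome were counted by role. Of 26 assembly factors 6 fell and 0 rose with construct 86 (23.1%, near the 17.6% of all genes; at an unadjusted p under 0.05, 6 lower and 2 higher), with a median change of -0.19. C1QBP, a mitochondrial matrix protein, was at 4806, 2831 and 3856 with construct 86, against 13320, 6908 and 11240 in EV libraries, a change of -1.43 (SE 0.28, adjusted p = 0.00343). MRM1, which methylates the large ribosomal RNA, changed by -1.33 (SE 0.23, adjusted p = 0.0018) and METTL17, a methyltransferase-like assembly factor, by -0.92 (SE 0.20, adjusted p = 0.00619). With construct 87 0 of 26 passed, and 6 were lower at an unadjusted p under 0.05. With the block 10 fell (38.5%, where 28.3% of all genes fell) and 2 rose (7.69%, where 27% rose) with construct 86. With construct 87 and the block 8 fell (30.8%, where 14.8% of all genes fell).

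Of 15 translation factors 6 fell (40%, where 17.6% of all genes fell) and 1 rose (6.67%, where 18% rose) with construct 86, with a median of -0.48. C12orf65, a release factor family member, was at 39.71, 50.07 and 39.87, against 183.3, 132.5 and 244.7 in EV libraries, a change of -2.05 (SE 0.29, adjusted p = 0.000656). GFM2, which acts in ribosome recycling, changed by -0.82 (SE 0.18, adjusted p = 0.00658). TUFM, the elongation factor that brings in transfer RNA, changed by -0.73 (SE 0.20, adjusted p = 0.0182), and the initiation factor MTIF3 rose by 0.89 (SE 0.29, adjusted p = 0.0375). With construct 87 1 of the 15 fell (6.67%, where 4.43% of all genes fell), the initiation factor MTIF2 by -0.76 (SE 0.19, adjusted p = 0.028). With the block 9 fell (60%, where 28.3% of all genes fell) and 1 rose (6.67%, where 27% rose) with construct 86. With construct 87 and the block 4 fell (26.7%, where 14.8% fell) and 1 rose (6.67%, where 16.1% rose). Of 17 mitochondrial aminoacyl tRNA synthetases 8 fell with construct 86 (47.1%, where 17.6% of all genes fell) and 0 rose (10 and 0 at an unadjusted p under 0.05), and with construct 87 0 passed (2 lower at an unadjusted p under 0.05). With the block 10 of the 17 fell with construct 86 (58.8%, where 28.3% of all genes fell). With construct 87 it gave 1 fall (5.88%, below the 14.8% of all genes). CARS2, the cysteine enzyme, changed by -1.09 (SE 0.17, adjusted p = 0.00107) and TARS2, the threonine enzyme, by -1.004 (SE 0.18, adjusted p = 0.0024). MARS2, the methionine enzyme, was at 101.7, 124.7 and 132.5 with construct 86 and 358.4, 427.3 and 342.1 with construct 87, against 362.3, 398.3 and 247.9 in EV libraries. Its change was -1.46 (SE 0.23, adjusted p = 0.00112) with construct 86 and 0.18 (adjusted p = 0.642) with construct 87.

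The RNAs encoded by mitochondrial DNA had mostly positive estimates, with a median log2 change of 0.46 with construct 86 and 0.75 with construct 87. Of 14 tested, 1 rose with construct 86 (7.14%, where 18% of all genes rose) and 0 with construct 87. In limma 0 fell with either construct. At an unadjusted p under 0.05, 0 were lower with either, while 2 were higher with construct 86 and 0 with construct 87. MT-ND6 was not above 0 in all 3 groups and was not tested. MT-RNR1, the RNA of the small subunit, was at 162.7, 108.0 and 177.0 with construct 86 and 87.22, 59.94 and 124.2 with construct 87, against 55.56, 31.97 and 81.92 in EV libraries. It rose with construct 86 by 1.45 (SE 0.39, adjusted p = 0.0149) and had an estimate of 0.71 with construct 87 (adjusted p = 0.265, and 0.0264 with the block). MT-RNR2, the RNA of the large subunit, had estimates of 1.09 (adjusted p = 0.0817) and 0.78 (adjusted p = 0.29), and passed with both constructs with the block (adjusted p = 0.000175 and 0.00405). MT-ND5, a subunit of complex I, had estimates of 1.22 (adjusted p = 0.147, and 0.00291 with the block) and 0.99 (adjusted p = 0.33, and 0.0186 with the block). With the block 6 of the 14 rose with construct 86 (42.9%, where 27% of all genes rose). In that fit 1 fell (MT-CO3, adjusted p = 0.0411), which is 7.14%, where 28.3% of all genes fell. With construct 87 and the block 8 rose (57.1%, where 16.1% rose). Libraries of this kind prime on poly(A), and ribosomal RNAs are captured by them only in part. TFAM, which packages and transcribes mitochondrial DNA, was at 570.5, 503.3 and 722.3 with construct 86 and 687.3, 756.1 and 1130 with construct 87, against 1946, 1335 and 2093 in EV libraries. Its changes were -1.57 (SE 0.25, adjusted p = 0.00128) and -1.07 (SE 0.25, adjusted p = 0.0249), with all 6 knockdown libraries below all EV libraries. With only construct 87 and EV libraries in the fit TFAM did not pass (adjusted p = 0.0525). The other 4 genes of mitochondrial transcription did not pass with either construct. Among them TFB2M, a transcription factor of mitochondrial DNA, had -0.81 with construct 86 (adjusted p = 0.0844, and 0.00339 with the block) and TEFM, an elongation factor, -0.66 (adjusted p = 0.235, and 0.0298 with the block).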

How the data were processed

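RNA of 9 A375 libraries (3 per group) was measured with QuantSeq 3′ mRNA-Seq, single end, per the labels' protocols. STAR, Subread, featureCounts and edgeR and the build hg19 are named, without roles or versions, in the submitters' processing notes. The authors deposited 1 score per gene and library, headed as a normalised read count, of whole numbers. The values were taken as reads multiplied by a constant per library and rounded, with the constant fitted to how often each value occurred. In EV replicates 1 and 3, construct 86 replicate 3 and construct 87 replicates 1 and 3 the constant was above 1. There every value to 400 equals such a multiple. In the other libraries it was below 1, where every whole number is such a multiple, so agreement shows nothing. Different read counts can share a value there, and the recovered reads are approximate. Of 60420 gene IDs in the files, 45742 are 0 throughout. For 14 IDs listed with conflicting values the higher was taken. Of the IDs 87.3% equal a GENCODE v29 ID with its version. The 13825 IDs above 0 in all 3 groups were tested.

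Reads were recovered with the constants, which gave 14413610, 15564093 and 11310656 reads (construct 86), 12670567, 15268215 and 12744947 (construct 87) and 12872056, 14553985 and 12321378 (EV). The recovered reads of all 9 libraries were then brought to 1 scale by the TMM formula, with 30% of log ratios and 5% of abundances trimmed. A count test had been planned for raw counts, but the files hold scaled and rounded scores. In its place limma 3.58.1 in R 4.3.3 was run on log2(value + 1) of the rescaled recovered reads. The fit had a variance trend, 1 coefficient per group and 6 residual degrees of freedom. The pseudocount understates fold changes of low genes. The scripts were tested on simulated data.

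Deviations from the group mean correlated over 13819 genes with r between 0.215 and 0.722 in all 9 pairs of libraries of the same replicate number in different groups, and between -0.644 and 0.14 in other such pairs. The numbers were therefore taken to pair the libraries, from the data and not the labels. The fit with a block (4 residual degrees of freedom) is given by gene for only part of the calls it changes. Among those not given above, MRPL51 fell with construct 87 in the blocked limma fit (adjusted p = 0.0203). MRPL18, MRPS15 and MRPS28 fell in it with construct 86 (adjusted p = 0.0109, 0.0496 and 0.0382). For the length correction, each library's log2 deviations from the gene means were fitted by a spline of 4 degrees of freedom in log median transcript length (GENCODE v29 basic), and the fitted trend was subtracted.

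The members, lists and tests were chosen with earlier results of these data known. Named in any case were, per subunit and construct, the 4 members of smallest adjusted p, the 6 leading differences between constructs, 6 members with all knockdown libraries beyond EV, the 3 highest and 3 lowest, 10 genes for their role, and 3 genes per other list. MRPL17, MRPL35, MRPL37, MRPL41, MTIF2, MTIF3 and MT-CO3 were added after their values were seen. So were the overlapping genes KLC4, SLC5A3, NCAPD2, NR2C2 and TMEM8A, which are not meant by named genes in the last section. MRPL45, MRPL57, MRPL58 and MRPS21 were matched by ID. Promoter sequences came from RefSeq (GRCh38.p14). No interval for counting error is given for the shares of reads per library.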

Additional observations from a re-analysis of the deposited data

Results flagged for a closer look

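The change against EV differed between the constructs in 11 members by the test of construct 87 against construct 86 itself (limma, Benjamini-Hochberg over all genes). Higher with construct 87 were MRPS9 (difference 1.36, adjusted p = 0.002), MRPL10 (1.20, 0.000607), MRPL23 (1.16, 0.0238), MRPL2 (0.99, 0.0121), MRPS18B (0.92, 0.00851), MRPL28 (0.80, 0.0201), MRPL17 (0.73, 0.0481), MRPS25 (0.65, 0.023) and MRPS27 (0.64, 0.0218). Lower with construct 87 were MRPS2 (-0.88, 0.0169) and MRPS7 (-0.87, 0.035). In each of the 11 all 3 construct 87 libraries lay beyond all 3 construct 86 libraries. The calls of MRPL10, MRPS9 and MRPS18B passed with any 1 of the 9 libraries left out. That of MRPL2 was lost without construct 86 replicate 2 (adjusted p = 0.0577). Each of the other 7 was lost without at least 2 of the libraries in turn, and that of MRPL17 without 6. Removal of the length trend ended the calls of MRPL28 (0.58, adjusted p = 0.0539) and MRPS27 (0.49, adjusted p = 0.057). MRPL28 had 3033, 2379 and 2463 normalised reads with construct 87, against 1524, 1420 and 1558 with construct 86, and its change against EV passed with neither construct (with construct 86 -0.51, adjusted p = 0.086, and 0.0161 with the replicate block). Its exons overlap those of TMEM8A on the same strand. TMEM8A rose with construct 86 (1.62, adjusted p = 0.000404 in limma) and with construct 87 (1.14, adjusted p = 0.0092). Between constructs TMEM8A had a difference of -0.48 that did not pass (adjusted p = 0.121).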

How the results depend on the processing

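The count of members that passed was 27 with construct 86, 6 with construct 87 and 11 between constructs. With the replicate block it was 55, 34 and 26, and with the block and the length trend removed 41, 33 and 27. The block ended no call of a named gene. Over all genes the block gave 7647, 4283 and 6094 calls, against 4925, 1431 and 3533, and with the length trend removed as well 7636, 4811 and 6615. Fitting only the 2 groups compared gave 17 members between constructs. It ended 5 calls with construct 86 (MRPL10, MRPL13, MRPL37, MRPL42 and MRPS5, adjusted p from 0.0562 to 0.0937) and 2 of the 6 with construct 87 (MRPL10 and MRPS33, 0.0551 and 0.0509), and also that of TFAM with construct 87 (0.0525). Without a variance trend the calls of MRPL10, MRPL13 and MRPL42 with construct 86 and of MRPL17 between constructs were lost (0.0546 to 0.0651). Over all genes with construct 87 the fit of 2 groups gave 857 calls, and with no filter on low values that count was 2630. With 1 library left out the count over all genes lay between 3059 and 6014 with construct 86, 369 and 2554 with construct 87, and 2207 and 4191 between constructs. Leaving out 1 library at a time, always without the block, gave 10 to 51 members with construct 86, 0 to 32 with construct 87 and 4 to 19 between constructs. Large minus small subunit was -0.08 with construct 86, -0.0045 with the length trend removed, with or without the block, and -0.0121 with subunits by structure. With construct 87 it lay between -0.156 and 0.0921 when 1 library was left out, against 0.03. With the length trend removed, with or without the block, the sign turned for MRPL2 (0.0104) and MRPS18A (0.0533) with construct 87 and for MRPL53 (0.115) and MRPS2 (0.0823) with construct 86, none of which had passed. With 1 library left out the sign turned for 9 uncalled changes, whose ranges were with construct 87 GFM2 -0.0066 to 0.179, MARS2 -0.0216 to 0.319, MRPL2 -0.281 to 0.036, MRPL38 -0.015 to 0.879, MRPS18A -0.253 to 0.0535, MRPS9 -0.313 to 0.063 and TUFM -0.255 to 0.0501, and with construct 86 MRPS2 -0.286 to 0.0258 and MRPS7 -0.448 to 0.0391. Median-of-ratios scaling, deposited values, pseudocounts of 0.5 or 5 and a mean of at least 10 kept the direction of each named change and every call but that of MRPL17 between constructs, lost with median-of-ratios scaling (adjusted p = 0.0559). The cause of these shifts was not tested.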
